A study of Homo sapiens with 6 samples.

Results

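The 10 genes described here encode plasma membrane carriers that bring amino acids into cells or, for *SLC3A2*, the heavy chain of some of them. They are *SLC3A2*, *SLC7A11*, *SLC7A5*, *SLC43A1*, *SLC38A1*, *SLC38A2*, *SLC1A4*, *SLC1A5*, *SLC7A1* and *SLC6A9*, taken by symbol from the 22807 genes of the expression table, and each symbol was found there. RNA was sequenced from MDA-MB-453, an established HER2+ breast cancer cell line, in 6 libraries. In 3 of them the cells had received siRNA against *DUSP6*, a phosphatase that removes phosphate from ERK kinases, and in 3 a scrambled siRNA. Per the study, 3 different siRNAs were used in each group, and which siRNA went into which library was not given in the sources used here. The 3 libraries of a group were therefore treated as replicates. All cells were kept in RPMI with serum, the labels name no drug or other modification, and the time from transfection to harvest was not given in the sources used here.

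Amino acid carriers act in families with distinct exchange rules. SLC3A2 (4F2hc, CD98) is a heavy chain that holds light chains such as SLC7A5 (LAT1) and SLC7A11 (xCT) at the cell surface. LAT1 exchanges glutamine for leucine and other large neutral amino acids, while xCT imports cystine for glutathione in exchange for glutamate. SLC38A1 and SLC38A2 (SNAT1 and SNAT2) take up glutamine and alanine together with sodium, and SLC1A4 and SLC1A5 (ASCT1 and ASCT2) exchange small neutral amino acids, glutamine among them for SLC1A5. SLC7A1 (CAT1) carries arginine and lysine, SLC6A9 (GlyT1) glycine, and SLC43A1 (LAT3) large neutral amino acids without a heavy chain. Several of these genes are known targets of ATF4, the transcription factor of the amino acid response, and *SLC7A11* is also one of NRF2. In cancer cells *SLC1A5*, *SLC7A5* and *SLC7A11* are widely studied as suppliers of glutamine, leucine and cystine.

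Promoter sequence is shown for the members that hold the core of the C/EBP-ATF response element, the site at which ATF4 acts. The letters TGATGNAA were searched on both strands from 250 bases before to 50 after each annotated start, in RefSeq windows of GRCh38.p14. Of the 10 genes, 9 had a window, with 16 windows in all, and *SLC7A11* had none. The core stood in 5 of the 9 genes and 5 of the 16 windows. In the reference it stood in 4.46% of the 27305 genes and 3.62% of the 35116 windows. *SLC3A2* and *SLC1A5* had 3 windows each, and *SLC1A4* and *SLC38A1* had 2. In each of these genes the core was absent from the window furthest upstream and stood in another one. Which start these cells use was not tested. The matches are in capitals, each sequence runs 5′ to 3′ on the gene's own strand, and TTACATCA and TTGCATCA are matches on the opposite strand.
*SLC3A2*, chr11:62881719-62881748, plus strand: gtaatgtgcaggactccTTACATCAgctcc
*SLC7A1*, chr13:29595659-29595758, minus strand: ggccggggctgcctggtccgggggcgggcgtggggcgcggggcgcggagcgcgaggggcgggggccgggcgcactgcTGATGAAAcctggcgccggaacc
*SLC1A4*, chr2:64989329-64989428, plus strand: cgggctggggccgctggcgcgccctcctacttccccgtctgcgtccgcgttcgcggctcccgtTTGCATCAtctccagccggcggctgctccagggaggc
*SLC1A5*, chr19:46784858-46784957, minus strand: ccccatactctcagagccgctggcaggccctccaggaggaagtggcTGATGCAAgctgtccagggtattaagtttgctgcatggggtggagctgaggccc
*SLC38A1*, chr12:46266487-46266586, minus strand: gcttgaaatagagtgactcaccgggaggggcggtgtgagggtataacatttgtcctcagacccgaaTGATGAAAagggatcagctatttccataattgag

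A second search, for the antioxidant response element core TGACNNNGC at which NRF2 acts, found it in *SLC3A2*, *SLC7A5*, *SLC7A1* and *SLC1A5*. These are 4 of the 9 genes and 4 of the 16 windows, against 16.1% of genes and 13.3% of windows in the reference. Of these 4, *SLC3A2* was higher after *DUSP6* siRNA, *SLC1A5* was lower, and *SLC7A5* and *SLC7A1* were not called. The *SLC3A2* match lies just before the same start as its C/EBP-ATF core. It is shown because *SLC3A2* rose most of the members, and so does not stand for the 4.
*SLC3A2*, chr11:62881616-62881715, plus strand: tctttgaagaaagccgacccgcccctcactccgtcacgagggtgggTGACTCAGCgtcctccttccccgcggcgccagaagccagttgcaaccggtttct
The E-box CACGTG, bound by MYC and related factors, stood in *SLC7A5*, *SLC1A5* and *SLC43A1*. These are 3 of the 9 genes and 3 of the 16 windows, against 8.77% of genes and 7.26% of windows. In *SLC1A5* the antioxidant core and the E-box were likewise absent from the window furthest upstream. No match of one motif overlapped a match of another in these windows. A match describes the letters and does not show that a factor binds.

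Expression is given as the deposited normalized value, reads scaled to the effective library size, and fold changes as *DUSP6* siRNA minus scrambled siRNA on the log2(value + 1) scale with standard error (SE). The recovered totals were 45546981 to 85729785 reads per library. Values are listed in the order of replicates 1 to 3 of each group. The targeted gene *DUSP6* had 209, 110 and 114 with scrambled siRNA and 39.4, 24.5 and 35.2 after knockdown, a log2 fold change of -2.05 (SE 0.25, limma adjusted p = 3.09e-04). The cell line label was checked with 8 luminal and HER2 markers, all of them detected, of which 5 were lower and 1 higher after *DUSP6* siRNA. *ERBB2*, the HER2 gene, was at 882 to 1068 with scrambled siRNA and 457 to 520 with *DUSP6* siRNA, and of the hormone receptor genes *ESR1* was at most 0.11 in any library while *PGR* was at 1.88 to 2.32. Of 11 markers of other cell types, 9 had a mean value below 1, among them *PTPRC* and *PECAM1* of blood and endothelial cells. The summed level of these 11 was 87.6 to 112 with scrambled siRNA and 169 to 199 with *DUSP6* siRNA, nearly all of it *COL1A1* (81 to 105 and 162 to 192, log2 fold change 0.90, SE 0.12, limma adjusted p = 4.21e-04), and its part in the transporter results was not tested. Scrambled siRNA replicate 3 lay nearest to the *DUSP6* siRNA libraries, with Pearson's r of 0.953 to 0.963 across genes against 0.940 to 0.955 for the other two.

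The transporters split in direction after *DUSP6* siRNA. *SLC3A2*, *SLC7A11* and *SLC38A2* were higher, *SLC38A1*, *SLC1A5*, *SLC1A4* and *SLC6A9* were lower, and *SLC7A5* and *SLC7A1* did not pass the test. That is 3 higher and 4 lower of the 9 members tested, at a limma adjusted p under 0.05, where 19.7% of the 12862 genes tested were higher and 24.7% lower. The groups did not overlap in 7 of the 9 tested members, as in 57.8% of all genes tested. The median log2 fold change was 0.09 over the 9 members and -0.01 over all genes tested. *SLC43A1* lay under the filter of a mean value of 1 and was not tested with the others. Which member counts as higher depends on the scaling for 2 of them: under quantile normalization 5 members were higher and 4 lower, with *SLC7A5* and *SLC7A1* added. In bulk RNA, fewer cells with a transcript and less transcript per cell cannot be told apart.

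**Figure D1:**
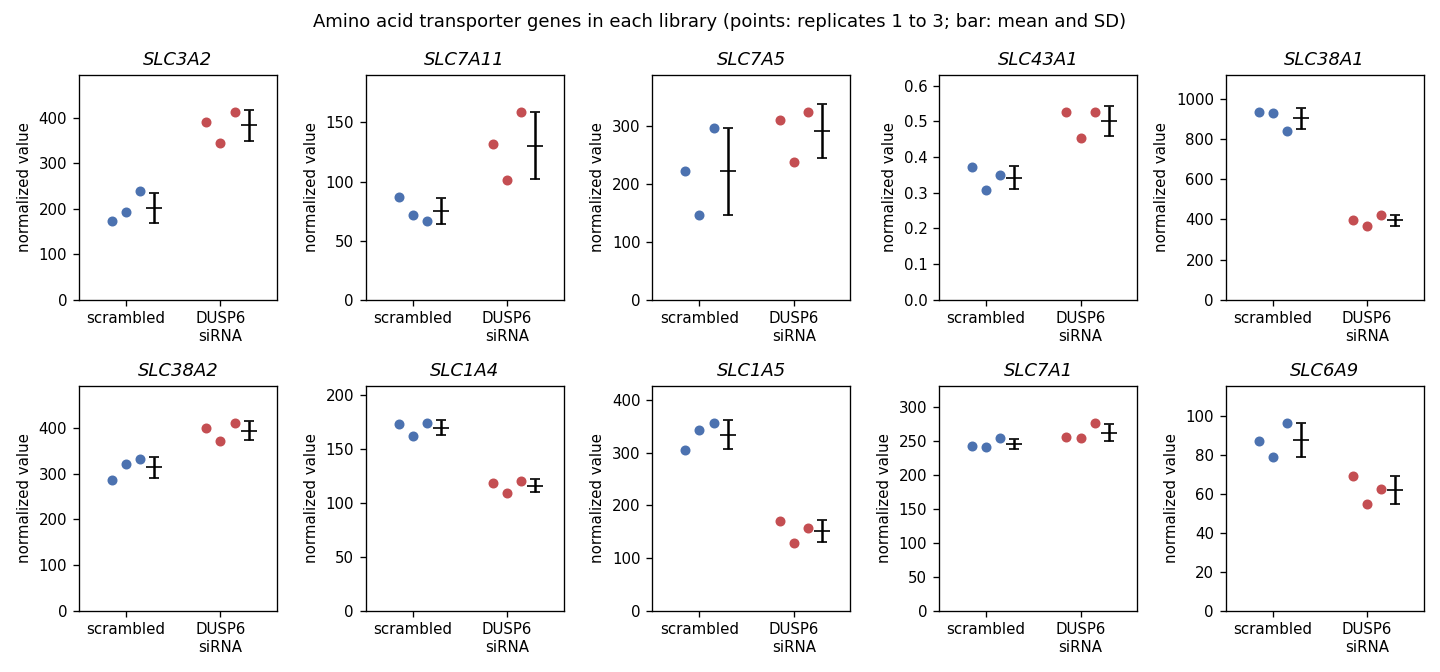
Normalized value (y axis, linear from 0, own scale per gene) of each of the 10 transporter genes in the 3 scrambled siRNA (blue) and 3 *DUSP6* siRNA (red) libraries, with mean and SD in black. The groups stand apart in 8 panels and overlap in those of *SLC7A5* and *SLC7A1*, and the values of *SLC43A1* stay below 0.6.

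*SLC3A2*, the shared heavy chain, showed the largest increase of the members (chromosome 11, 62856109-62888860, GRCh38.p14). With scrambled siRNA the values were 174, 193 and 238, and with *DUSP6* siRNA 392, 346 and 412. All libraries with *DUSP6* siRNA lay above the highest scrambled library, and the mean went from 202 ± 33.0 to 383 ± 34.1 (SD, n = 3 each), 1.90 times the scrambled mean. This was a log2 fold change of 0.93 (SE 0.13, limma adjusted p = 5.60e-04), and it stayed between 0.83 and 1.15 over 14 alternative settings.

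*SLC7A11*, the cystine carrier of system xc-, rose with its heavy chain (chromosome 4, 138164097-138242349). The scrambled libraries held values of 87.1, 71.3 and 66.8 and the *DUSP6* siRNA libraries 131, 101 and 159. The *DUSP6* siRNA libraries were all above the scrambled ones but varied more among themselves, with means of 75.1 ± 10.7 and 130 ± 28.6 (SD, n = 3 each). The increase was 0.77 on the log2 scale (SE 0.16, limma adjusted p = 0.00514). Exons of the antisense gene *SLC7A11-AS1* cover 9.0% of those of *SLC7A11*, and reads were not stated to be counted by strand, so the value is uncertain to that extent. *SLC7A11-AS1* itself was between 0.46 and 1.21 in the 6 libraries.

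*SLC7A5*, the leucine carrier LAT1, had the largest SE of the tested members (chromosome 16, 87830023-87869507). It was at 222, 146 and 297 with scrambled siRNA and at 311, 238 and 324 with *DUSP6* siRNA. The groups overlapped, because scrambled siRNA replicate 3 lay above *DUSP6* siRNA replicate 2. The log2 fold change was 0.44 (SE 0.23, limma adjusted p = 0.153), with a 95% interval from -0.09 to 0.96. Without scrambled siRNA replicate 2 it was 0.17 (limma adjusted p = 0.458), without scrambled siRNA replicate 3 0.68 (limma adjusted p = 0.0191), and under quantile normalization 0.64 (limma adjusted p = 0.0431). Stretches of 538 and 536 bases of the 4556-base *SLC7A5* transcript, 11.8% of it, align to the pseudogenes *SLC7A5P1* and *SLC7A5P2* at 96.7% and 96.3% identity, so reads there may be shared. Those pseudogenes had values of 1.88 to 2.45 and 4.14 to 6.15, far under those of *SLC7A5*.

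*SLC43A1*, which encodes a carrier of the same amino acids that needs no heavy chain, was hardly expressed (chromosome 11, 57484534-57515702). Its values of 0.372, 0.307 and 0.349 with scrambled siRNA and 0.526, 0.452 and 0.525 with *DUSP6* siRNA rested on 16 to 37 reads per library. The groups did not overlap. In the fit without a filter on low values its log2 fold change was 0.16 (SE 0.04, limma adjusted p = 0.0211), where the added 1 exceeds the values themselves.

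Levels between genes were compared per kilobase of canonical transcript. Set side by side in this way after the values were seen, and given with no test, the light chain genes that pair with *SLC3A2* (*SLC7A5*, *SLC7A6*, *SLC7A7*, *SLC7A8*, *SLC7A10* and *SLC7A11*) summed to 130, 114 and 128 per kilobase with scrambled siRNA and 113, 91.4 and 118 with *DUSP6* siRNA. *SLC3A2* was at 92.2, 103 and 126 per kilobase and then at 208, 183 and 219. The light chain sum was thus 1.02 to 1.41 times the *SLC3A2* level in the scrambled libraries and 0.498 to 0.543 times in the *DUSP6* siRNA libraries. The make-up of the sum also differed, with *SLC7A8* (LAT2, another carrier of neutral amino acids) at 32.4% ± 9.64 of it with scrambled siRNA and 9.35% ± 0.88 with *DUSP6* siRNA (SD, n = 3 each). *SLC7A5* made up 38.8% ± 11.4 and 59.3% ± 1.86, and *SLC7A11* 6.27% ± 0.79 and 12.5% ± 1.28. *SLC7A6* made up 17.2% to 25.2% of the sum over the libraries, and *SLC7A6OS* overlaps 53.9% of its exons. The sum, its ratio to *SLC3A2* and the shares are uncertain to that extent. These are transcript levels per length and say nothing of protein at the membrane.

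**Figure D2:**
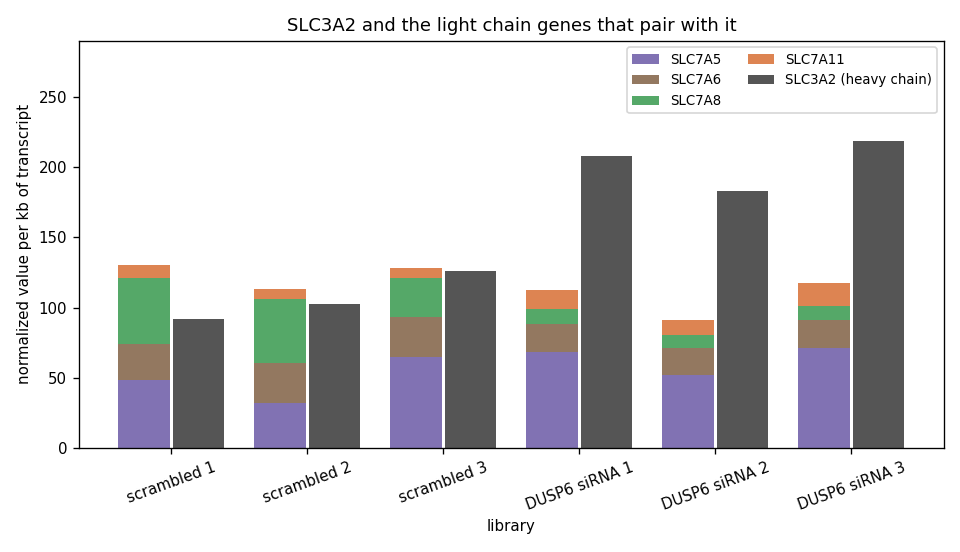
Normalized value per kilobase of transcript (y axis) in each of the 6 libraries, with the light chain genes stacked (left bar) beside *SLC3A2* (grey, right bar). *SLC7A7* and *SLC7A10*, together below 0.5% of the sum, are not drawn. The grey bar exceeds the stack in the 3 *DUSP6* siRNA libraries, where the green part (*SLC7A8*) is small.

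*SLC38A1*, the sodium-coupled glutamine carrier SNAT1, fell most of the members (chromosome 12, 46183063-46269043). It was at 934, 933 and 843 with scrambled siRNA and at 398, 366 and 421 with *DUSP6* siRNA. The groups were far apart, at 903 ± 52.3 and 395 ± 27.8 (SD, n = 3 each), so that 43.7% of the scrambled mean was left. This was a log2 fold change of -1.19 (SE 0.10, limma adjusted p = 3.57e-05).

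*SLC38A2*, the neighbouring gene for the related carrier SNAT2, which is known to rise when amino acids are short, moved the other way (chromosome 12, 46358188-46372773). Its values were 287, 322 and 332 with scrambled siRNA and 400, 371 and 411 with *DUSP6* siRNA, without overlap. The increase was 0.33 on the log2 scale (SE 0.09, limma adjusted p = 0.0190). The call was lost without *DUSP6* siRNA replicate 1 (0.32, limma adjusted p = 0.0777) and without replicate 3 (0.30, limma adjusted p = 0.0959).

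*SLC1A5*, the glutamine exchanger ASCT2, fell by about as much as *SLC38A1* (chromosome 19, 46774883-46788594). It was at 305, 343 and 357 with scrambled siRNA and at 170, 128 and 156 with *DUSP6* siRNA, and the mean fell from 335 ± 27.0 to 152 ± 21.1 (SD, n = 3 each). The log2 fold change was -1.14 (SE 0.12, limma adjusted p = 1.33e-04).

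*SLC1A4*, which encodes the serine and alanine exchanger ASCT1 of the same family, fell less (chromosome 2, 64988479-65023865). Scrambled libraries were at 173, 162 and 174 and *DUSP6* siRNA libraries at 118, 109 and 120, with replicates close together in both groups. This was a log2 fold change of -0.55 (SE 0.08, limma adjusted p = 0.00106).

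*SLC6A9*, the glycine carrier GlyT1, showed the smallest of the called decreases (chromosome 1, 43996483-44031462). Its values were 87.3, 78.8 and 96.4 with scrambled siRNA and 69.2, 54.6 and 62.3 with *DUSP6* siRNA. Its log2 fold change was -0.49 (SE 0.12, limma adjusted p = 0.00840).

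*SLC7A1*, the arginine and lysine carrier CAT1, was the steadiest member (chromosome 13, 29509414-29595688). It was at 243, 241 and 255 with scrambled siRNA and at 257, 254 and 277 with *DUSP6* siRNA, and the groups overlapped. The log2 fold change was 0.09 (SE 0.08, limma adjusted p = 0.396). Its 95% interval of -0.10 to 0.28 leaves out the estimated fold change of every called member. It still overlaps the interval of *SLC38A2*, 0.12 to 0.54. Under quantile normalization it was 0.31 (limma adjusted p = 0.0120).

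**Figure D3:**
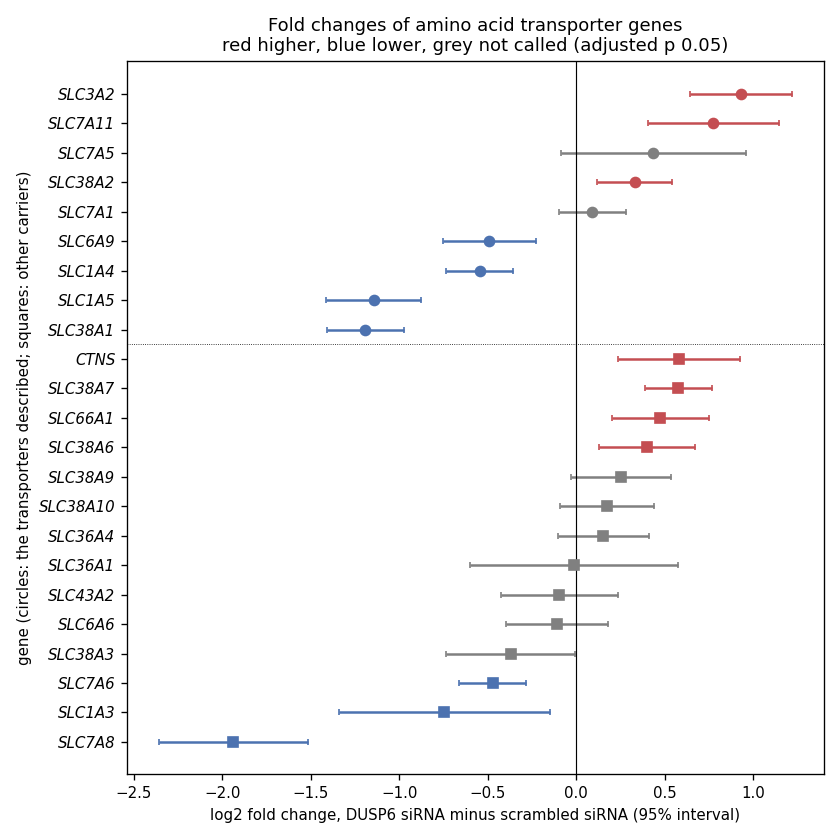
Log2 fold change (x axis, *DUSP6* siRNA minus scrambled siRNA, with 95% interval) of the 9 tested transporters described (circles, top) and 14 other tested amino acid transporters (squares, bottom), coloured by call. The members run from -1.19 for *SLC38A1* to 0.93 for *SLC3A2*, and *SLC7A8* at -1.94 lies below all of them.

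Ordered by level per kilobase, the members changed places. With scrambled siRNA *SLC1A5* (116 ± 9.37), *SLC38A1* (112 ± 6.46) and *SLC3A2* (107 ± 17.5, SD, n = 3 each) led and did not differ beyond their spread. *SLC38A2* followed at 65.4 ± 4.90, then *SLC7A5* at 48.7 ± 16.6, *SLC1A4* at 37.2 ± 1.48 and *SLC7A1* at 33.6 ± 1.00, and the range of *SLC7A5* overlapped those of the other three. With *DUSP6* siRNA *SLC3A2* led alone at 203 ± 18.1, followed by *SLC38A2* at 82.2 ± 4.25, *SLC7A5* at 63.8 ± 10.2, *SLC1A5* at 52.6 ± 7.32 and *SLC38A1* at 48.8 ± 3.43, and the ranges of *SLC7A5* and *SLC38A1* overlapped that of *SLC1A5*. *SLC6A9* (27.3 and 19.3), *SLC7A11* (7.78 and 13.5) and *SLC43A1* (0.136 and 0.199) kept the places 8 to 10 in both groups. *SLC7A11* thus stood far below its heavy chain per length in either group.

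Ratios of the normalized values, not scaled for length, were formed within each library for 4 pairs of related members and compared between the groups. An exact permutation test of the log2 ratio was used, for which 3 libraries against 3 cannot give a p below 0.1. The *SLC38A2* to *SLC38A1* ratio was 0.307, 0.345 and 0.394 with scrambled siRNA and 1.00, 1.01 and 0.976 with *DUSP6* siRNA, a log2 difference of 1.52 (two-sided exact permutation p = 0.1). Every *DUSP6* siRNA library lay above every scrambled one, as *SLC38A2* rose and *SLC38A1* fell. The *SLC1A5* to *SLC1A4* ratio was 1.76, 2.12 and 2.05 and then 1.44, 1.18 and 1.30, a log2 difference of -0.60 (two-sided exact permutation p = 0.1), also without overlap. The light chain to heavy chain ratios overlapped between the groups. For *SLC7A11* to *SLC3A2* they were 0.501, 0.369 and 0.281 against 0.336, 0.293 and 0.385 (log2 difference -0.15, two-sided exact permutation p = 0.7). For *SLC7A5* to *SLC3A2* they were 1.28, 0.757 and 1.25 against 0.794, 0.688 and 0.786 (log2 difference -0.50, two-sided exact permutation p = 0.3). None of the 4 could pass an adjusted threshold at this sample size.

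**Figure D4:**
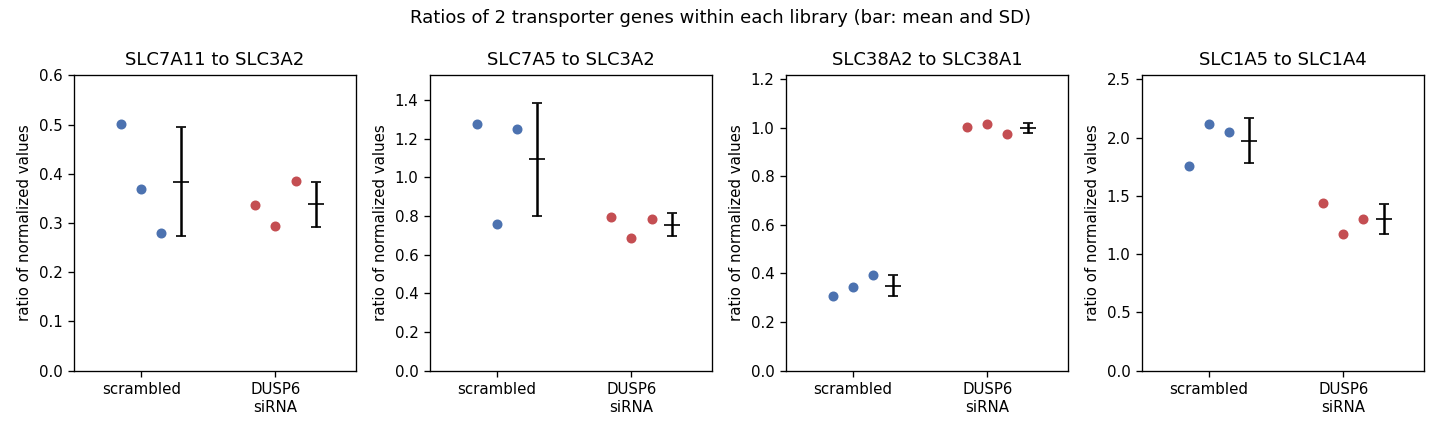
Ratio of the normalized values of 2 genes in each library (y axis, linear from 0) for 4 pairs, with scrambled siRNA in blue, *DUSP6* siRNA in red and mean and SD in black. The *SLC38A2* to *SLC38A1* ratio lies below 0.4 in the scrambled libraries and near 1 in the *DUSP6* siRNA libraries, while the pairs with *SLC3A2* overlap.

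The wider family of amino acid transporters was read from a list of 38 genes, of which 34 were in the table and 14 were expressed enough to be tested. In it 4 genes were higher (28.6%, against 19.7% of all genes tested), 3 lower (21.4%, against 24.7%) and 7 not called, with a median log2 fold change of 0.07. *SLC7A8* fell most, from 198, 192 and 117 to 46.0, 38.9 and 41.8 (-1.94, SE 0.19, limma adjusted p = 8.79e-05). *SLC1A3*, a glutamate carrier, changed by -0.74 with overlapping groups (limma adjusted p = 0.0454), and *SLC7A6*, a further *SLC3A2* partner, by -0.47, the latter uncertain since *SLC7A6OS* overlaps 53.9% of its exons. The 3 largest increases were in *CTNS* (0.58), which exports cystine from lysosomes, *SLC38A7* (0.58), a lysosomal glutamine carrier, and *SLC66A1* (0.48), a lysosomal carrier of cationic amino acids. Without *DUSP6* siRNA replicate 2 only 1 of the list was called higher. *CTNS* shares 5.05% of its exons with neighbours and is uncertain to that extent.

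The list of amino acid enzymes held 32 tested genes, among them some that neither make nor use the transported amino acids themselves. Of the 32, 14 were lower (43.8%, against 24.7% of all genes tested), 4 higher (12.5%, against 19.7%) and 14 not called, with a median of -0.23. *ASS1*, which makes argininosuccinate for arginine synthesis, was at 326, 231 and 323 with scrambled siRNA and at 69.9, 46.8 and 57.3 with *DUSP6* siRNA (log2 fold change -2.32, SE 0.17, limma adjusted p = 2.16e-05). *GLUL*, which makes glutamine, and *GLUD1*, which deaminates glutamate, both changed by -1.58, and *SHLD2* overlaps 14.1% of *GLUD1* exons. Among the increases were *GPT*, an alanine aminotransferase (1.28), and *ASNS*, which makes asparagine (0.71).

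*ATF4* itself did not pass the test, at 632, 610 and 645 with scrambled siRNA and 620, 533 and 645 with *DUSP6* siRNA (log2 fold change -0.07, 95% interval -0.30 to 0.15, limma adjusted p = 0.575). This is the transcript, and the level and activity of the ATF4 protein were not measured here. Of 22 genes of the ATF4 axis, which are its upstream kinases, partners and known targets, 6 were higher (27.3%, against 19.7% of all genes tested) and 4 lower (18.2%, against 24.7%), with a median of -0.04. The increases were led by *EIF2AK2* (2.03), the interferon-induced RNA sensor PKR, *ATF3* (1.37), a stress factor, and *SESN2* (1.14), a leucine sensor. The decreases were led by *EIF4EBP1* (-1.84), an inhibitor of translation, *ATF5* (-1.28, with 9.77% of its exons shared) and *STC2* (-0.87). The 5 transporters with the C/EBP-ATF core shown above comprise a higher gene (*SLC3A2*), lower ones (*SLC1A4*, *SLC1A5* and *SLC38A1*) and an uncalled one (*SLC7A1*).

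*NFE2L2*, which encodes NRF2, did not pass the test either (-0.15, 95% interval -0.35 to 0.05, limma adjusted p = 0.189). The level and activity of the NRF2 protein were likewise not measured here. Of 18 tested genes of glutathione and NRF2, which use or guard the cysteine that SLC7A11 brings in, 4 were higher and 4 lower (22.2% each, against 19.7% and 24.7% of all genes tested), with a median of -0.06. *AIFM2* (FSP1, 1.31), *HMOX1* (haem oxygenase, 1.06, with overlapping groups) and *GCLM* (a subunit of the enzyme that begins glutathione synthesis, 0.61) led the increases. *SLC40A1* (the iron exporter ferroportin, -1.11), *GSR* (glutathione reductase, -0.89) and *GPX4* (which reduces lipid peroxides, -0.73) led the decreases. *MYC*, which is known to drive *SLC7A5* and *SLC1A5*, was at 202, 116 and 145 and then at 134, 70.2 and 124, with overlap (-0.51, 95% interval -1.09 to 0.08, limma adjusted p = 0.140), and 5.21% of its exons are shared with a neighbour.

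Of 20 aminoacyl-tRNA synthetases, which charge tRNAs with the imported amino acids, *RARS1* (0.31) was higher, *AARS1* (-0.52), *YARS1* (-0.50) and *FARSA* (-0.33) were lower and 16 were not called, with a median of 0.00, where 19.7% of all genes tested were higher and 24.7% lower. The number called higher was 0 without *DUSP6* siRNA replicate 2 or replicate 3, 2 without scrambled siRNA replicate 1 and 3 without scrambled siRNA replicate 3. The list for amino acid sensing by mTORC1 held 34 genes, among them parts of mTORC1 itself and others that do not sense amino acids. Of the 34, 10 were higher (29.4%, against 19.7% of all genes tested) and 5 lower (14.7%, against 24.7%), with a median of 0.20. *SESN2* (1.14), *WDR24* of GATOR2 (0.85) and *LAMTOR4* of Ragulator (0.68) led the increases, and *CASTOR1*, an arginine sensor (-1.21), *RRAGA* (-0.81) and *MIOS* (-0.73) the decreases. Without *DUSP6* siRNA replicate 2 the 10 became 5.

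**Figure D5:**
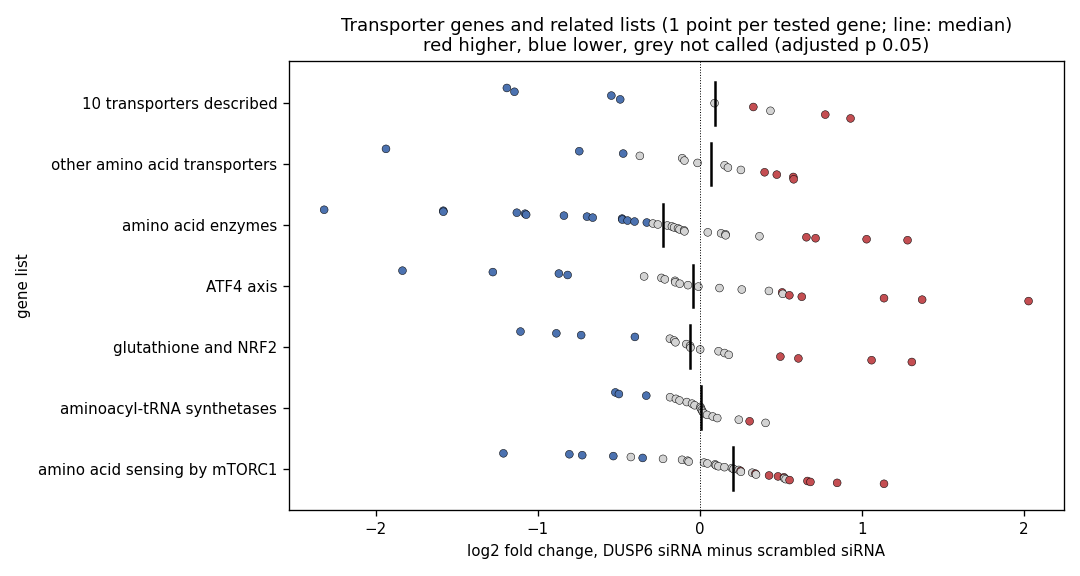
Log2 fold change (x axis, *DUSP6* siRNA minus scrambled siRNA) of every tested gene of the 10 transporters described (9 tested) and 6 related lists, with red for higher, blue for lower and grey for not called, and a line at each list's median. Medians lie between -0.23 for amino acid enzymes and 0.20 for amino acid sensing by mTORC1, and each list holds genes called in both directions.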

How the data were processed

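RNA-seq libraries of MDA-MB-453 cells (stranded Illumina TruSeq mRNA kit) were made by the authors, 3 per group. The authors aligned reads to hg38 with Rsubread 2.0.0, counted them over RefSeq gene models with default settings and deposited 1 normalized signal value per gene and library. The processing notes also name bcl2fastq and edgeR. All values came out as whole reads (tolerance 0.01) times 1 step per library, and the steps held edgeR's TMM factors to within 2.22e-16, so depth and composition were already adjusted for. One read was worth 0.0121 to 0.0202. The tested members had at least 3421 reads in each library, which makes their counting error small, while it is larger for genes with values near 1.

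From there, the 12862 genes whose mean value over the 6 libraries reached 1 were fitted as log2(value + 1) with limma 3.58.1 in R 4.3.3 (eBayes with trend, Benjamini-Hochberg over all genes tested, calls at adjusted p under 0.05). Adding 1 understates fold changes of low genes. Tried besides were median-of-ratios or quantile scaling, a pseudocount of 0.1, a filter at a mean of 10 or none, a replicate block, eBayes without trend, the quasi-likelihood test of edgeR 4.0.16 on recovered reads, and leaving out each library. The fit was tested on simulated data. Ratios were compared with exact permutation tests. Lengths are those of canonical GENCODE transcripts, positions and promoters are RefSeq's, and *SLC7A5* was aligned to its pseudogenes with BLAST+ 2.17.0. Where neighbours cover over 5% of a gene's exons, its value is given as uncertain.

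All 10 members are named, with *DUSP6*, *ATF4*, *NFE2L2*, *MYC*, genes sharing sequence with a named gene, and up to 3 called genes per direction with the largest fold change of each other list. A gene that this rule would name among the amino acid enzymes is not reported here. The cell line markers named and the light chain sum were picked after their values were seen. The members and lists were chosen with earlier results of these data known, and nothing here is independent evidence for them. The p-values measure the spread between these libraries, which per the study received different siRNAs. Same-numbered libraries of the 2 groups deviated with correlations of 0.005, 0.087 and -0.076. These showed no pairing by number, but 3 libraries per group cannot exclude it. No 2 libraries agreed within sampling noise. Of the wider transporter list, 4 symbols found no match and were not analysed here.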

Additional observations from a re-analysis of the deposited data

How the results depend on the processing

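No direction of a tested member turned under any of the 14 alternatives, and *SLC3A2*, *SLC7A11*, *SLC38A1*, *SLC1A5*, *SLC1A4* and *SLC6A9* stayed called under all of them. Members called higher went from 3 to 5 under quantile normalization. *SLC7A1* ran from 0.05 to 0.31 and *SLC7A5* from 0.17 to 0.68. Of the aminoacyl-tRNA synthetases 2 were higher under median of ratios and under quantile normalization, against 1. Leaving out each library in turn moved the genes called higher to between 2 and 4 (members), 1 and 5 (other transporters), 3 and 6 (amino acid enzymes), 5 and 7 (ATF4 axis), 3 and 4 (glutathione and NRF2), 0 and 3 (aminoacyl-tRNA synthetases) and 5 and 13 (mTORC1 sensing), and those called lower to between 4 and 4, 2 and 3, 11 and 17, 4 and 5, 3 and 4, 2 and 4, and 4 and 6. The log2 differences of the ratios ran from 1.44 to 1.62 (*SLC38A2* to *SLC38A1*), -0.68 to -0.53 (*SLC1A5* to *SLC1A4*), -0.36 to 0.06 (*SLC7A11* to *SLC3A2*) and -0.74 to -0.37 (*SLC7A5* to *SLC3A2*). Where leaving out libraries moved a count, the cause was not tested. Counting error limits *SLC43A1*, while the spread between 3 libraries limits the other members.

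With the replicate number as a block, *SLC7A5* passed the test (0.44, limma adjusted p = 0.0157) and 2 aminoacyl-tRNA synthetases were higher instead of 1. No other count moved by over 1.5 times and no other member changed its call. The sign-flip test over numbered pairs gave p = 0.25 (exact, the smallest 3 pairs allow) for 3 of the ratios and 0.75 for *SLC7A11* to *SLC3A2*. The correlations given above showed no pairing of the libraries by number, but cannot exclude it.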
